A study of Mus musculus with 4 samples.

Results

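The response of liver cells to an injected inflammatory cytokine, TNF, was read type by type from 2 single-cell RNA libraries of A/A mice. One library came from untreated livers (baseline) and the other from livers taken 3 h after 500 ng TNF was given intraperitoneally. A barcode was kept if it had 300 genes or more and no more than 20% of its unique molecular identifiers (UMIs, the counted transcript molecules) from mitochondrial genes, which left 9282 of the 19176 kept barcodes of the series, 2830 at baseline and 6452 after TNF, in 2 of its 4 libraries. All mice were 2 months old, and the cells of 2 mice were pooled in each library. The meaning of A and S in these genotype names is not given in the sources used here. The S/S libraries, baseline and TNF, enter below only as a parallel set of values. The livers were digested, spun at low speed to enrich non-parenchymal cells, cleared of dead cells on Ficoll and sorted to enrich macrophages and live cells, so shares of cells are shares of what these steps kept. With 1 library in each group there was no replicate and no test. Every difference below is a difference between these 2 libraries, and the spread between mice is not known.

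The 2 libraries also differed in their processing. The baseline counts were made with Cell Ranger 7.1.0 and the TNF counts with 6.1.2, per the file headers, so version and TNF cannot be told apart. The baseline matrix held 308 barcodes with under 250 genes and 336 with over 20% mitochondrial UMIs, and the TNF matrix held 0 of either. Kept barcodes carried 20514857 UMIs at baseline and 53463285 after TNF, with medians of 4723.5 and 5866 UMIs per barcode. The 2 libraries shared 3 barcode sequences.

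TNF is a trimeric cytokine made mainly by activated macrophages. It binds TNFR1, present on most cells, and TNFR2, found mostly on leukocytes and endothelium. TNFR1 assembles a complex with TRADD, RIPK1, TRAF proteins and the ligases cIAP1 and cIAP2, which activates the IKK kinases. IKK marks the inhibitor IkBα for destruction, and NF-kB dimers of RelA and p50 then enter the nucleus and switch on chemokines, adhesion molecules, survival genes and their own inhibitors, IkBα and A20 among them. In liver, TNF acts on Kupffer cells, the resident macrophages, on sinusoidal endothelium and on hepatocytes, which answer inflammation with acute phase proteins.

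Promoter sequences are printed for 4 genes of this circuit and for 1 metallothionein gene, because the results below turn on the NF-kB feedback genes, a chemokine and the metallothioneins. Each is the 250 bases upstream of the first listed start of the gene, from RefSeq on GRCm38.p6, an earlier build than the mm39 of the counts. The NF-kB motif searched was GGGNNNTTCC and the metal response element was TGCACNC or TGCGCNC, both on either strand. Capitals mark the matches, and overlapping matches run together. Cxcl2 encodes a neutrophil chemoattractant and holds 3 NF-kB matches, 2 of them overlapping.
Cxcl2, chr5:90903649-90903898, plus strand: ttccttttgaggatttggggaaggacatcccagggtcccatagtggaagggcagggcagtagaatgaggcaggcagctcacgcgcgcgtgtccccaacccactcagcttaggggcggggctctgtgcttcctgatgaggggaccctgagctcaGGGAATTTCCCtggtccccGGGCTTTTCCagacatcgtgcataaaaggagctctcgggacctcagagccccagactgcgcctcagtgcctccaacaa
Nfkbia encodes IkBα, Tnfaip3 encodes A20 and Nfkb2 encodes the p100 precursor of p52, and these windows hold 1, 1 and 2 NF-kB matches.
Nfkbia, chr12:55492648-55492897, minus strand: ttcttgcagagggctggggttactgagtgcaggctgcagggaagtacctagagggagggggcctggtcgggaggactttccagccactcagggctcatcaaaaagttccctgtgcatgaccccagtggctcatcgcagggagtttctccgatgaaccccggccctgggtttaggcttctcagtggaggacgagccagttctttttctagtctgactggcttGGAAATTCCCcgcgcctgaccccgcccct
Tnfaip3, chr10:19015411-19015660, minus strand: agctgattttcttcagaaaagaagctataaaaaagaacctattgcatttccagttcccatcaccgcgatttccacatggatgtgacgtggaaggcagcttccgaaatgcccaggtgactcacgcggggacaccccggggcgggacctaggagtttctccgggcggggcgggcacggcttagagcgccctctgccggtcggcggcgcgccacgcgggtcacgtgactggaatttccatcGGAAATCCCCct
Nfkb2, chr19:46304487-46304736, plus strand: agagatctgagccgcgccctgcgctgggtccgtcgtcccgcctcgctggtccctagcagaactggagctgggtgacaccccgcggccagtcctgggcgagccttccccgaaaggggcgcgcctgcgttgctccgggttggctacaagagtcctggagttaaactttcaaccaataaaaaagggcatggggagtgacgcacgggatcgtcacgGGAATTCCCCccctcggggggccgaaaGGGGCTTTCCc
Mt2 encodes metallothionein 2, a small protein that binds zinc and copper, and its window holds 3 metal response elements.
Mt2, chr8:94172368-94172617, plus strand: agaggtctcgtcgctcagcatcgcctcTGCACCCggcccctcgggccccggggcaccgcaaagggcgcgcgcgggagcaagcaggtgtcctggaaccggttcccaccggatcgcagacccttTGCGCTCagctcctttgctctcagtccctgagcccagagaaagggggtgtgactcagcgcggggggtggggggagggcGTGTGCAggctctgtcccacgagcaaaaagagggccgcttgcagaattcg
The NF-kB motif was found in 4.60% of all 27025 RefSeq promoter windows and the metal response element in 21.3%. Of the listed NF-kB subunits and inhibitors, 7 of 15 with a window held the NF-kB motif, and of the chemokines 6 of 17. Of the listed type I interferon-stimulated genes, 5 of 27 held the NF-kB motif. Among the listed NF-kB target genes the count was 2 of 26, and among the metallothionein, zinc and oxidative stress genes 5 of 13 held the metal response element. Of the 26 genes higher in every type, 16 had a window, of which 2 held the NF-kB motif and 3 the metal response element. A match describes the letters of a window and was not tested for binding.

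Barcodes were assigned to types by gates on marker genes, and a barcode that passed gates of 2 types was left out as mixed (125 at baseline and 375 after TNF). A further 239 and 834 barcodes passed no gate. The type names below stand for barcodes that carry those markers (Kupffer-like and so on). The 9 types with at least 50 barcodes in both libraries, baseline first, were Kupffer cells (321 and 339), monocytes (56 and 365), neutrophils (117 and 1387), plasmacytoid dendritic cells or pDC (169 and 170), B cells (407 and 218), T cells (466 and 938), NK cells or ILC1 (57 and 129), endothelial cells (261 and 1061) and hepatocytes (451 and 402). Neutrophils made up 4.13% of kept barcodes at baseline and 21.5% after TNF, and Kupffer cells 11.3% and 5.25%; the sort and the filtering of the TNF matrix can set such shares. Leading genes matched the names at baseline, Clec4f and Cd5l in Kupffer cells, S100a8 and S100a9 in neutrophils, Alb in hepatocytes and Ptprb and Stab2 in endothelial cells. After TNF the 10 leading genes of endothelial cells held 0 of the markers that gated them, and were led by Cd93, Lyve1, Aqp1 and Vcam1. Kupffer cells after TNF were led by Prg4 and Serpinb2 and had 2 markers of the C1q macrophage gate in their top 10. C1q macrophages, the other dendritic cells, plasma cells, erythroid cells and mesenchymal cells had too few barcodes and were not compared. Endothelial cells had 24 barcodes in the S/S baseline library and were not compared in the S/S pair, which left 8 types there.

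UMIs were summed over the barcodes of a type in a library and scaled to CPM, counts per 1e6 of that sum. A log2 ratio is the TNF level over the baseline level with 1 CPM added to each. A gene counted as measured in a type with at least 20 UMIs over both libraries, and as higher or lower with a log2 ratio of at least 1 or at most -1 (2-fold). Intervals, given as "interval", are exact Clopper-Pearson 95% intervals of the log2 ratio without the added 1 CPM; PCR and free RNA aside, counting error is all they cover, and the spread between mice is not in them. By this rule 21.5% of measured genes were higher and 12.0% lower in Kupffer cells, 15.2% and 24.8% in monocytes, 18.0% and 29.4% in neutrophils, 6.07% and 17.0% in pDC, 9.97% and 20.9% in B cells. The values were 5.30% and 16.3% in T cells, 11.9% and 19.3% in NK cells, 21.5% and 18.6% in endothelial cells, and 19.8% and 6.29% in hepatocytes. These shares are the background for every count of listed genes below. Summed UMIs were 616496 at baseline and 8451870 after TNF in neutrophils, 571750 and 6100058 in endothelial cells, and 825337 and 7451475 in monocytes. There a gene could pass the 20 UMIs, and be called higher, through the TNF library alone. In neutrophils 884 of 1619 higher calls had an interval above 0, in endothelial cells 1576 of 2234 and in monocytes 1152 of 1535. In Kupffer cells it was 1412 of 1511 and in T cells 672 of 672. Shares of called genes that were higher ran from 24.6% in T cells to 75.9% in hepatocytes.

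**Figure D1:**
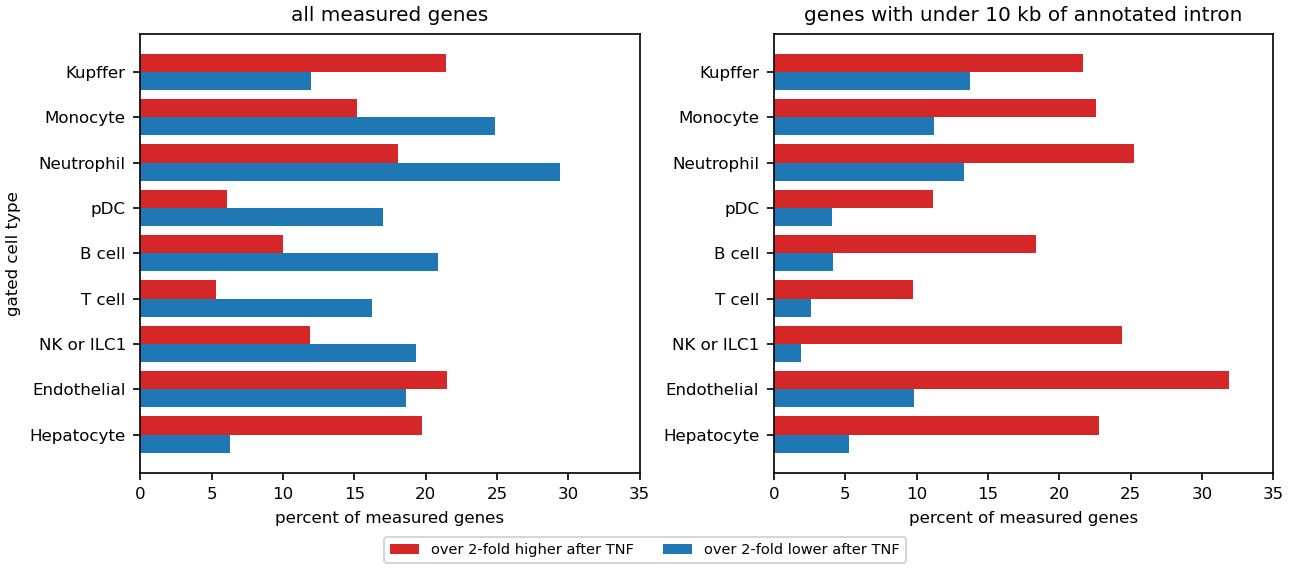
Bars show the percent of measured genes that were over 2-fold higher or over 2-fold lower after TNF in each of the 9 types, for all measured genes on the left and genes with under 10 kb of intron on the right. On the left, higher genes made up 21.5% in Kupffer and endothelial cells and 5.30% in T cells, and lower genes reached 29.4% in neutrophils.

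Genes with long introns ran lower than genes with short introns in 8 of the 9 types. The median log2 ratio of genes with over 100 kb of intron minus that of genes with under 1 kb was -2.24 in B cells, -2.40 in NK cells, -2.21 in neutrophils, -2.02 in monocytes, -1.90 in T cells, -1.88 in endothelial cells and -1.87 in pDC. In hepatocytes it was -0.42, and in Kupffer cells 0.32. Among genes with under 10 kb of intron, the share of called genes that were higher moved to 66.8% in monocytes (38.0% over all genes), 65.5% in neutrophils (38.0%), 73.3% in pDC (26.3%), 81.7% in B cells (32.3%), 78.8% in T cells (24.6%), 92.8% in NK cells (38.0%) and 76.5% in endothelial cells (53.6%). In Kupffer cells it was 61.1% (64.2%) and in hepatocytes 81.3% (75.9%). Centring each type on its median gene moved the share by over 10 points in Kupffer cells (52.5%), neutrophils (48.7%) and hepatocytes (52.2%). Totals without ribosomal RNA, mitochondrial and ribosomal protein genes moved it in Kupffer cells (54.0%), B cells (51.1%), T cells (40.4%), NK cells (48.4%) and hepatocytes (59.6%). The median log2 ratio over all measured genes was 0.17 in Kupffer cells, -0.10 in monocytes, -0.27 in neutrophils, 0.08 in endothelial cells and 0.36 in hepatocytes, which centring sets to 0. With the reduced totals it was 0.03 in Kupffer cells, 0.08 in hepatocytes, 0.16 in B cells (from -0.09), 0.14 in T cells (from -0.02) and 0.12 in NK cells (from -0.02). Whether introns were counted is not given in the sources used here, and its part in the lower genes was not tested.

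Of 3915 genes measured in all 9 types, 26 (0.664%) were over 2-fold higher in every type. A further 22 were higher in 8 types, 33 in 7, and 974 in 1 type, while 1849 were higher in none. Of the 26, 22 were also higher in every type with centred ratios and 23 with the reduced totals. With 50 UMIs needed in every type, 13 genes were higher in all, and with 1 UMI needed, 66. Some genes, 519 of the 3915, were higher in at least 1 type and lower in at least 1 other. In neutrophils 5 of the 26 had 0 baseline UMIs and a bound against 3 UMIs of under 2-fold: Rpl10-ps3 at least 0.997-fold, Timm10 1.02, Nme2 1.05, Gm8730 1.75 and Ndufs5-ps 1.80. Their 2-fold call in neutrophils rests on the 1 CPM added, and 21 genes are left without them. The 26 fall into a few groups. Metal and iron handling gave Mt1 and Mt2 (metallothioneins), Slc39a1 (the zinc importer ZIP1), Hmox1 (haem oxygenase 1, which breaks down haem) and Ftl1 (ferritin light chain). Acute phase and neutrophil products gave Saa3 (a serum amyloid A), Lcn2 (lipocalin 2, which holds bacterial siderophores), S100a8 and S100a9 (calprotectin) and Cd14 (the lipopolysaccharide co-receptor). Chemokine, adhesion and NF-kB genes gave Cxcl2, Vcam1 (a leukocyte adhesion molecule) and Nfkbib (the NF-kB inhibitor IkBβ). Cytoskeletal and signalling genes gave Akap12 (a protein kinase A anchor), Marcksl1, Rhob and Rhoc. The rest were Nme2 (a nucleotide kinase), Timm10 (a mitochondrial import chaperone), Igha (the IgA heavy chain), and the copies or unnamed genes Eif3j2, Ndufs5-ps, Rpl10-ps3, Gm8730, Gm12840 and Gm43305. Rhoc and Igha fall outside the rule that chose the names and were named after their values were seen.

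**Figure D2:**
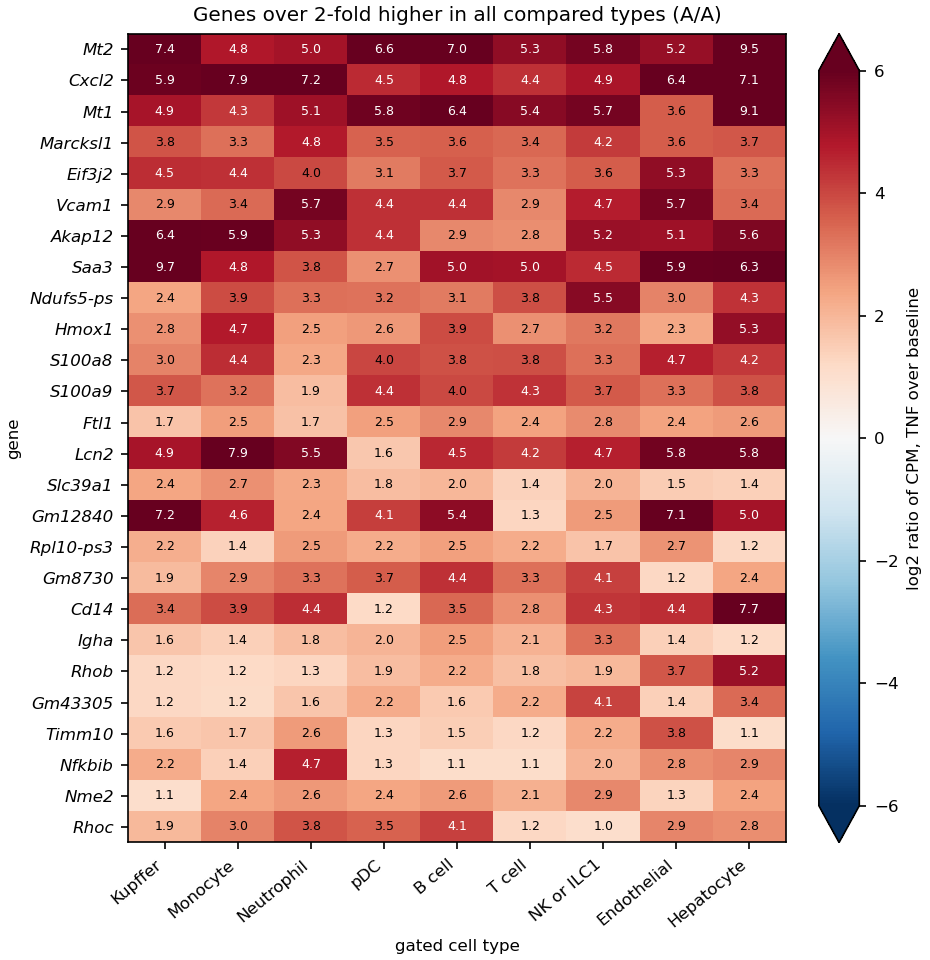
The heat map shows the log2 ratio (TNF over baseline, 1 CPM added) of the 26 genes over 2-fold higher in every type, with genes in rows, the 9 types in columns and colours ending at 6. Rows are ordered by their smallest ratio, from Mt2 (4.83, in monocytes) down to Rhoc (1.04, in NK cells).

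RNA released from broken cells enters every droplet, so a gene that becomes very abundant in 1 type can rise at a low level in all of them. The size of this was measured with the markers of neutrophils, hepatocytes, endothelial cells and Kupffer cells. Neutrophil markers were found in the other types at 0.034 to 0.44% of their neutrophil level at baseline and at 0.16 to 0.52% after TNF. Endothelial markers stood at 3.23% of their endothelial level in Kupffer cells at baseline and at 9.02% after TNF, and in the other types at 0.15 to 1.10% and 0.70 to 3.87%. These markers summed to 431 CPM at baseline and 608 after TNF in Kupffer cells, and to 13326 and 6740 CPM in endothelial cells. The share therefore rose in part because its denominator fell. A marker-share level was then formed for each gene and type: the sum over those source types of the marker share times the gene's own level in the source. S100a8 stood at 84.4 to 303 CPM outside neutrophils and at 60584 CPM in neutrophils. S100a8 and S100a9 are themselves markers of the neutrophil gate, so the comparison with this level says nothing about them. Of the 26 genes, 10 stood at 3 times the marker-share level or more in all 9 types, 3 did so in 5 to 8 types and 13 in 1 to 4 types. The 10 were Nfkbib, Slc39a1, Nme2, Ftl1, Eif3j2, Ndufs5-ps, Rpl10-ps3, Gm8730, Gm43305 and Igha. Plasma cells are not among the source types, so the comparison says nothing about Igha, which stood at 101386 CPM in the plasma cell gate after TNF.

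**Figure D3:**
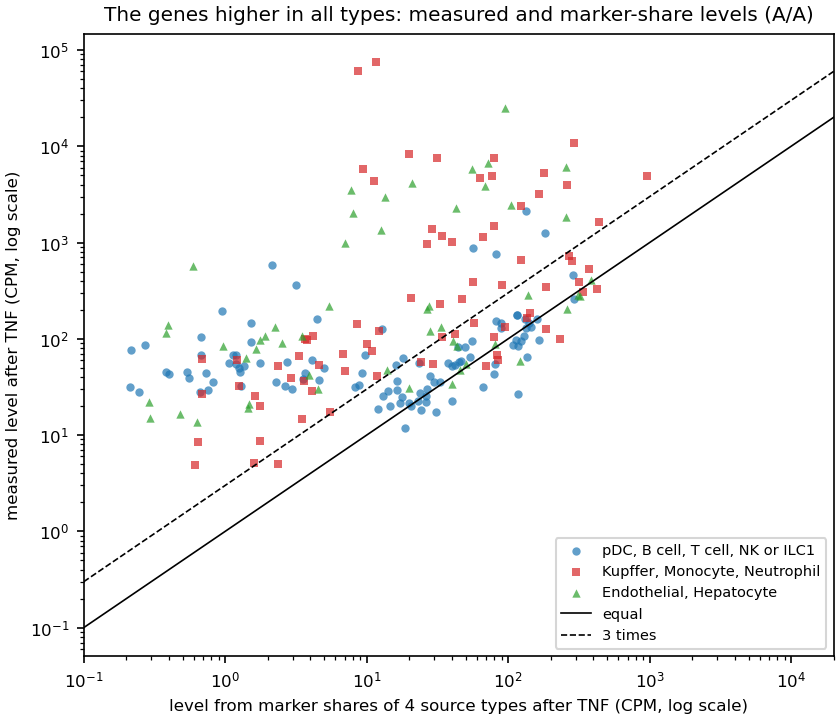
Each point is 1 of the 26 genes in 1 type, with the observed level after TNF set against the marker-share level, both in CPM on log axes. The solid line marks equal levels and the dashed line 3 times the marker-share level. Many points of the lymphocytes and pDC lie near the solid line.

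Nfkbib, the inhibitor IkBβ, had the most even level of these genes after TNF, 37.8 to 98.6 CPM across the 9 types. It went from 18.2 to 88.6 CPM in Kupffer cells, 36.3 to 98.6 in monocytes, 1.62 to 65.7 in neutrophils, 24.3 to 60.1 in pDC, 17.0 to 37.8 in B cells, 23.6 to 52.0 in T cells, 15.9 to 68.4 in NK cells, 12.2 to 90.5 in endothelial cells and 11.7 to 97.0 in hepatocytes. The log2 ratio was smallest in T cells, 1.11 (interval 0.87 to 1.41), and largest in neutrophils, 4.67 (interval 2.86 to 10.65, from 1 UMI at baseline). These levels were 8.84 times the marker-share level in Kupffer cells and 57.2 times in NK cells. In the S/S pair Nfkbib was over 2-fold higher in 5 of 8 types. The promoter window of Nfkbib held 0 NF-kB matches.

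Slc39a1, the zinc importer ZIP1, rose in the same way at 3.82 to 40.2 times the marker-share level. Its level went from 51.1 to 266 CPM in Kupffer cells, 20.6 to 142 in monocytes, 13 to 69.0 in neutrophils, 18.1 to 67.7 in pDC, 7.19 to 31.4 in B cells, 11.0 to 30.3 in T cells, 7.07 to 32.3 in NK cells, 75.2 to 217 in endothelial cells and 15.2 to 42.0 in hepatocytes. The log2 ratio ran from 1.38 in T cells (interval 1.07 to 1.86) to 2.73 in monocytes (interval 2.10 to 3.57). In the S/S pair it was higher in 7 of 8 types. Nme2 went from 21 to 116 CPM in hepatocytes, and in neutrophils from 0 UMIs to 5.09 CPM.

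Other genes of the 10 have near-identical copies in the table. Summed with its copy, Eif3j2 (a translation initiation factor subunit) had log2 ratios of -0.67 to 0.98 across types, Rpl10-ps3 with Rpl10 -0.80 to 0.90, and Ndufs5-ps with Ndufs5 -0.93 to 0.81. Ftl1 alone rose in all 9 types, for example from 3358 to 10838 CPM in Kupffer cells, while the copies Ftl1-ps1 and Ftl2-ps fell in all 9. The sum of the 3 ferritin light chain genes had log2 ratios of -0.06 to 1.40. Ftl1-ps1 held 6099 UMIs in A/A Kupffer cells at baseline and 18 in S/S Kupffer cells at baseline, 2 libraries made with the same Cell Ranger version. Ftl1 was higher in 0 of the 8 S/S types, and which copy a read came from cannot be told apart here. Igha reached 50.3 CPM in pDC and 159 CPM in B cells, and the few barcodes in the plasma cell gate went from 33437 to 101386 CPM; in NK cells 58.1% of the Igha UMIs after TNF lay in 1 barcode. In S/S, Igha was higher in 1 type and lower in 2.

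Mt1 and Mt2, the metal-binding metallothioneins, rose most in hepatocytes. Mt1 went from 44.4 to 25196 CPM in hepatocytes, 490 to 6153 in endothelial cells, 162 to 4938 in Kupffer cells, 32.7 to 641 in monocytes, 14.6 to 532 in neutrophils, 4.60 to 456 in B cells, 3.48 to 256 in pDC, 3.13 to 178 in T cells and 1.77 to 147 in NK cells. Mt2 went from 7.01 to 5854 CPM in hepatocytes, a log2 ratio of 9.51 (interval 8.58 to 11.15), from 101 to 3867 CPM in endothelial cells and from 8.52 to 1643 CPM in Kupffer cells. In the other 6 types Mt2 ended at 53.0 to 187 CPM, 0.59 to 1.31 times the marker-share level. Both genes stood at 3 times that level or more in hepatocytes, endothelial cells and Kupffer cells. Over the list of 16 metallothionein, zinc and oxidative stress genes, 12 of 15 measured were higher in each of Kupffer cells, monocytes, neutrophils and endothelial cells, and 0 were lower in any type. Slc7a11, the cystine importer, went from 1.21 to 378 CPM in monocytes. Hmox1 went from 1103 to 7498 CPM in Kupffer cells and from 54.5 to 1483 CPM in monocytes.

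Saa3 and Lcn2 were highest in different types. Saa3 went from 4.87 to 4905 CPM in Kupffer cells, 166 to 4645 in monocytes, 52.6 to 4155 in hepatocytes and 82.7 to 1130 in neutrophils; in Kupffer cells 44.2% of its UMIs lay in 1 barcode. In the remaining types it ended at 17.3 to 59.0 CPM. Lcn2 went from 175 to 8218 CPM in neutrophils and from 40.9 to 2287 CPM in hepatocytes. In monocytes Lcn2 had 0 UMIs at baseline and 231 CPM after TNF, at least 63.5-fold higher against a floor of 3 UMIs. Of the 26 acute phase and STAT3 target genes, 16 of 24 measured in hepatocytes were higher and 0 lower, with a median of 1.73. In S/S hepatocytes 5 of 23 were higher and 1 lower, with a median of 0.14, and the difference was not tested. The summed level of the list went from 14000 to 44229 CPM in A/A hepatocytes and from 33508 to 26769 CPM in S/S hepatocytes. Steap4, a metalloreductase, went from 10.5 to 463 CPM in A/A hepatocytes. Saa1 in hepatocytes went from 2201 to 6921 CPM.

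The NF-kB subunits and inhibitors, a list of 19 genes, rose broadly in Kupffer cells, endothelial cells and hepatocytes. Higher members numbered 17 of 19 in Kupffer cells (21.5% of all measured genes), 13 of 18 in endothelial cells (21.5%) and 12 of 13 in hepatocytes (19.8%). The median log2 ratios of the measured members were 2.21, 2.15 and 2.95, against 0.17, 0.08 and 0.36 over all measured genes of those types. In neutrophils 12 of 19 were higher (median 1.55), in NK cells 8 of 17 (1.0), in monocytes 8 of 18 (0.81), in pDC 6 of 18 (0.28) and in T cells 5 of 19 (0.46). In B cells 1 of 18 was higher and 2 were lower, with a median of -0.05 (all genes -0.09), and the 1 was Nfkbib.

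Nfkbia, the IkBα gene, was higher in 8 of the 9 types, and in all 8 at 3 times the marker-share level or more. It went from 168 to 855 CPM in Kupffer cells, 402 to 1343 in monocytes, 420 to 4288 in neutrophils, 67.1 to 245 in pDC, 146 to 449 in T cells, 99 to 516 in NK cells, 157 to 1279 in endothelial cells and 17.5 to 220 in hepatocytes. In B cells it went from 137 to 200 CPM, a log2 ratio of 0.55 (interval 0.36 to 0.74), while in neutrophils the ratio was 3.35 (interval 3.18 to 3.53). Nfkb2 was higher in the same 8 types, with 2.34 to 67.0 CPM in hepatocytes, 48.7 to 300 in neutrophils and 52.9 to 45.1 in B cells. Relb, the partner of p52, was higher in 7 types and stood at 0.47 in monocytes and -0.16 in B cells. Bcl3, a nuclear IkB protein, went from 3.50 to 159 CPM in hepatocytes.

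Tnfaip3, the deubiquitinating enzyme A20, was higher in 6 types. It went from 13.4 to 211 CPM in Kupffer cells, 46.0 to 267 in monocytes, 43.8 to 630 in neutrophils, 30.6 to 64.4 in pDC, 15.7 to 326 in endothelial cells and 8.18 to 73.0 in hepatocytes. In the lymphocytes it moved less, from 15.5 to 25.1 CPM in B cells, 87.6 to 112 in T cells and 53.0 to 106 in NK cells, log2 ratios of 0.66 (interval 0.12 to 1.26), 0.35 (interval 0.20 to 0.50) and 0.99. Nfkb1, the p105 precursor of p50 and a gene with a long intron span, was higher in 3 types, Kupffer cells (73.0 to 315 CPM), endothelial cells (135 to 329) and hepatocytes (18.7 to 61.0), and stood at -0.93 in B cells (interval -1.13 to -0.74). Among the list members with under 10 kb of intron, medians were 1.31 in monocytes, 0.93 in pDC and 0.46 in B cells, each above the value for all members. Over all measured genes with under 10 kb of intron, the medians were 0.29, 0.38 and 0.47, so the B cell members stood at that background. In B cells 1 of 8 such members was higher, against 18.4% of all such genes.

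**Figure D4:**
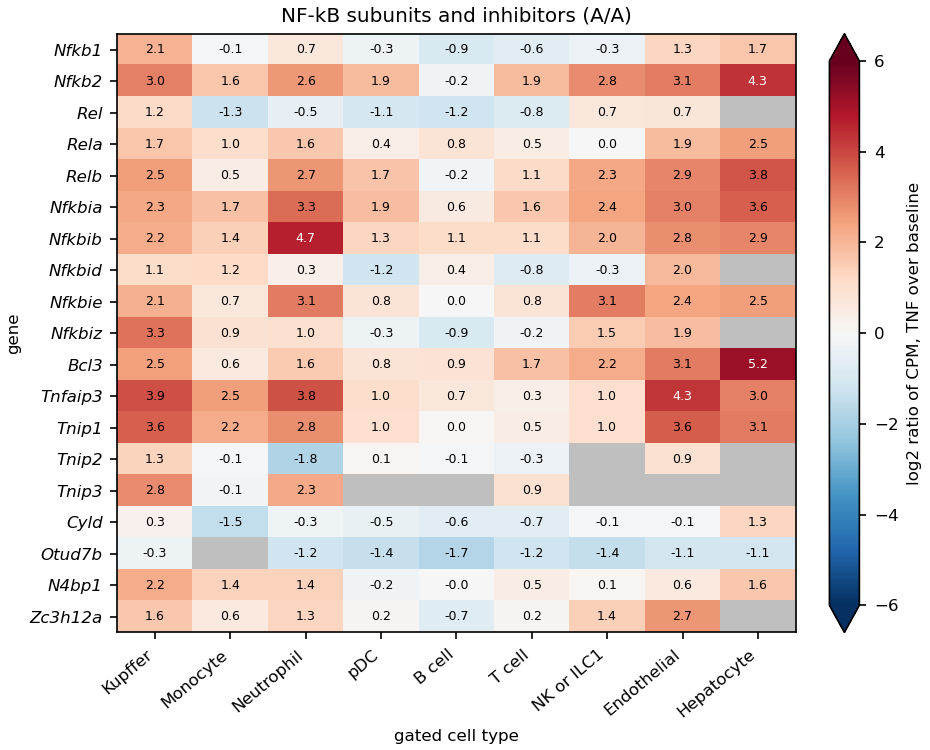
The heat map shows the log2 ratio (TNF over baseline, 1 CPM added) of the 19 NF-kB subunits and inhibitors in rows and the 9 types in columns, with grey for genes not measured. Nfkbia and Nfkb2 are over 1 in 8 types and at 0.55 and -0.23 in B cells.

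The TNF receptors themselves moved little. Tnfrsf1a (TNFR1) had log2 ratios of -0.40 in neutrophils to 0.50 in monocytes and Kupffer cells outside 2 types. In hepatocytes it went from 8.18 to 53.0 CPM, and in B cells from 0.86 to 8.20 CPM, below 3 times the marker-share level. Tnfrsf1b (TNFR2) was higher in 0 of the 7 types where it was measured; monocytes held the most, 317 CPM at baseline and 458 after TNF. Of the 25 receptor and proximal signalling genes, 9 of 23 were higher in endothelial cells, 9 of 16 in hepatocytes, 7 of 20 in Kupffer cells, 7 of 23 in neutrophils and 0 of 25 in pDC. The largest ratio was that of Traf1, an adaptor that NF-kB induces, from 3.24 to 389 CPM in neutrophils. Ikbke, an IKK-related kinase, went from 9.73 to 490 CPM in neutrophils, and Birc2 (cIAP1) from 12.2 to 365 CPM in endothelial cells. Traf5 fell from 98.1 to 4.0 CPM in hepatocytes.

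Of 26 survival and death genes, 13 of 26 measured were higher and 2 lower in endothelial cells, 12 and 1 of 23 in Kupffer cells, 12 and 2 of 23 in neutrophils, 12 and 0 of 25 in B cells and 9 and 0 of 15 in hepatocytes. In monocytes 10 of 26 were higher and 7 lower, with a median of -0.06. Among the members with under 10 kb of intron, 7 of 13 were higher and 2 lower in monocytes, with a median of 1.21. The median of all such genes there was 0.29. Counts in the other types were 4 and 0 of 26 in T cells, 6 and 1 of 19 in NK cells and 5 and 1 of 21 in pDC. Sod2, the mitochondrial superoxide dismutase, was higher in 6 types, for example from 32.4 to 1549 CPM in neutrophils, 153 to 2532 in monocytes and 108 to 1280 in Kupffer cells. Birc3 (cIAP2) was higher in 4 types, with 19.2 to 257 CPM in endothelial cells, and was lower in B cells, 326 to 134 CPM. Gadd45b, a stress gene, had 0 UMIs at baseline and 48.9 CPM after TNF in endothelial cells, at least 9.31-fold higher. In Kupffer cells both Fas, the death receptor, and Bcl2l1 (Bcl-xL) went from 2.43 to 77.9 CPM.

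Of 35 listed NF-kB target genes, 26 of 30 measured were higher in endothelial cells, 25 of 29 in Kupffer cells and 15 of 18 in hepatocytes, with medians of 2.26, 1.93 and 2.40. Counts were 15 of 34 in monocytes, 13 of 32 in neutrophils, 11 of 22 in NK cells, 10 of 33 in T cells, 9 of 28 in pDC and 8 of 31 in B cells, with medians of 0.74, 0.73, 0.94, 0.68, 0.25 and 0.32. Icam1, the ligand of leukocyte integrins, was higher in 8 types. It went from 24.5 to 1641 CPM in endothelial cells and from 42.2 to 973 CPM in neutrophils, and in T cells its log2 ratio was 0.97 (interval 0.81 to 1.16). Of the 8 types, monocytes, neutrophils, NK cells and endothelial cells stood at 3 times the marker-share level or more, and Kupffer cells (2.63 times), hepatocytes (2.36), B cells (1.46) and pDC (1.34) below it. Vcam1 went from 56.0 to 2964 CPM in endothelial cells and was at 3 times the marker-share level or more in that type alone; in Kupffer cells, at 717 CPM, it was 2.67 times that level, and in NK cells 69.7% of its UMIs lay in 1 barcode. Sele (E-selectin) went from 3.50 to 81.6 CPM in endothelial cells. Ripk2, a kinase that relays NOD signals, went from 1.17 to 332 CPM in hepatocytes. Sdc4, a heparan sulphate proteoglycan, went from 13.4 to 1000 CPM in Kupffer cells. Ptges (prostaglandin E synthase) and Selp (P-selectin) had 0 UMIs in baseline Kupffer cells. After TNF they were higher by at least 53.4-fold and 35.8-fold, and 34.9% and 21.6% of their UMIs lay in 1 barcode. The endothelial marker share of Kupffer cells rose from 3.23 to 9.02%, in part because the markers fell in endothelial cells themselves. The part of this share in the Kupffer values, and in the marker-share levels set against them, was not tested.

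Chemokines were divided among sources. Cxcl2 was highest in neutrophils, 38.9 to 5792 CPM, then in monocytes, 4.85 to 1372, and in Kupffer cells, 15.8 to 1002. In Kupffer cells 27.4% of the Cxcl2 UMIs after TNF lay in 1 barcode. In hepatocytes Cxcl2 had 0 UMIs at baseline and 132 CPM after TNF, at least 37.7-fold higher. In endothelial cells it reached 85.1 CPM and in the lymphocytes and pDC 21.6 to 36.7 CPM, 1.14 to 2.25 times the marker-share level in these 5 types. Cxcl1, which acts on the same receptor, was higher in 5 types and reached 198 CPM in hepatocytes, 165 in Kupffer cells and 39.3 in endothelial cells. Ccl2, the monocyte chemoattractant, went from 1.75 to 1579 CPM in endothelial cells, a log2 ratio of 9.17 (interval 7.34 to 15.12) and the largest of the list. It was higher in all 8 types where it was measured, but at 3 times the marker-share level or more only in endothelial cells and hepatocytes.

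Cxcl10, an interferon-responsive ligand of CXCR3, was lower in monocytes and higher in 8 types. It went from 12.2 to 1330 CPM in endothelial cells, 5.84 to 304 in hepatocytes, 8.11 to 209 in neutrophils, 31.6 to 118 in Kupffer cells, 1.77 to 44.6 in NK cells, 1.44 to 38.3 in B cells, 6.93 to 33.8 in T cells and 2.43 to 27.1 in pDC. In monocytes it went from 634 to 108 CPM, a log2 ratio of -2.54 (interval -2.71 to -2.39). Of the 8 types, neutrophils, T cells, NK cells, endothelial cells and hepatocytes stood at 3 times the marker-share level or more, while Kupffer cells were at 0.94, pDC at 0.51 and B cells at 1.08 times. Cxcl11, another CXCR3 ligand, had 0 UMIs at baseline and 318 CPM after TNF in endothelial cells, at least 60.7-fold higher, and Cxcl9, the third, went from 7.01 to 938 CPM in hepatocytes.

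Of 32 cytokine and growth factor genes, 13 of 19 measured were higher and 3 lower in monocytes, 11 and 4 of 19 in neutrophils and 10 and 0 of 15 in Kupffer cells. In the other types 6 and 0 of 13 were called in endothelial cells, 5 and 1 of 15 in T cells, 3 and 0 of 9 in B cells, 2 and 1 of 7 in pDC, 2 and 0 of 7 in NK cells and 2 and 1 of 4 in hepatocytes. Tnf itself went from 38.9 to 753 CPM in neutrophils, 21.8 to 260 in monocytes and 0 to 96.2 in Kupffer cells, at least 26.4-fold higher in the last. Il1b was 5212 CPM at baseline and 7276 after TNF in neutrophils, a log2 ratio of 0.48 (interval 0.43 to 0.53), and went from 139 to 600 CPM in monocytes. In the other 5 types where Il1b was over 2-fold higher, it stood below 3 times the marker-share level. Il6 was higher in Kupffer cells, 8.52 to 118 CPM, the only type called. Il1rn, the IL-1 receptor antagonist, had 0 UMIs in hepatocytes at baseline and was at least 29.1-fold higher. Il23a, a subunit of IL-23, had 0 UMIs in neutrophils at baseline and 50.9 CPM after TNF. Csf3, the neutrophil growth factor G-CSF, was measured in 0 types.

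**Figure D5:**
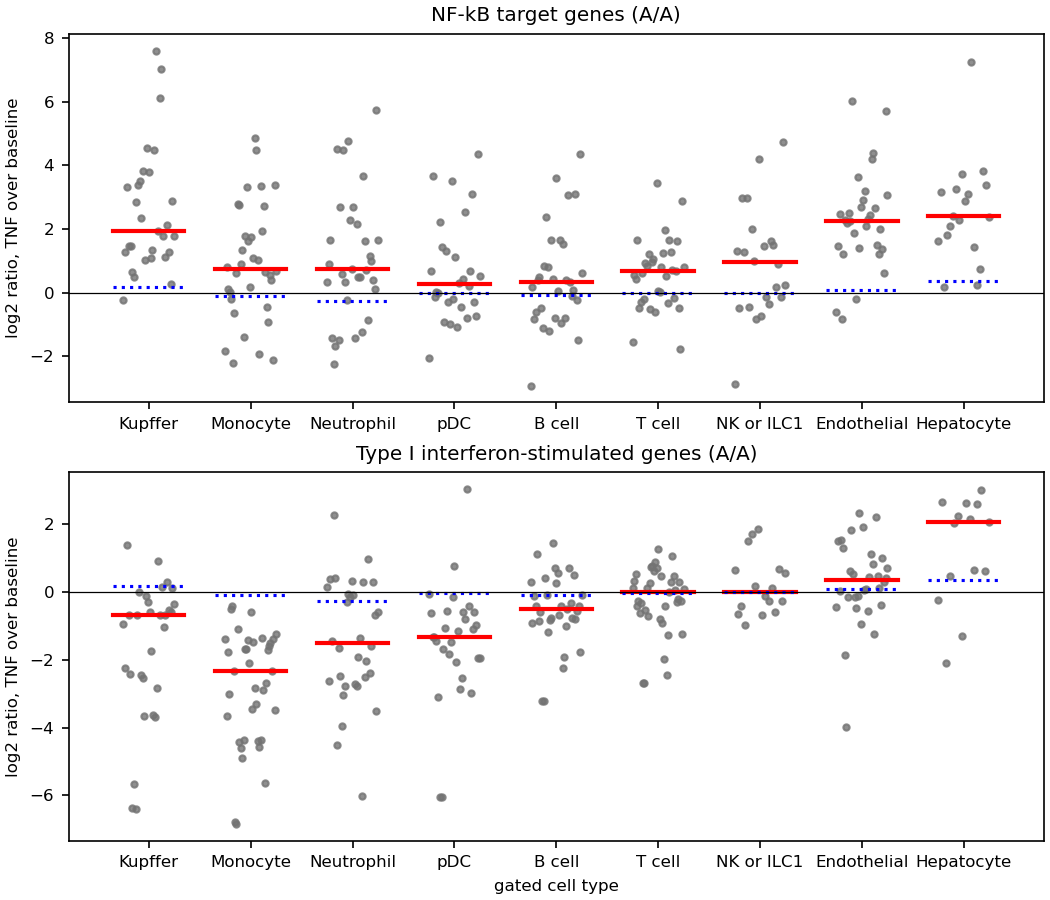
Each point is 1 measured gene, placed at its log2 ratio (TNF over baseline, 1 CPM added) in 1 of the 9 types, for NF-kB target genes above and type I interferon-stimulated genes below. Red lines are the list medians and dotted lines the medians of all measured genes; the interferon medians run from -2.33 in monocytes to 2.04 in hepatocytes.

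Most measured interferon-stimulated genes were lower in A/A monocytes, and more were higher than lower in A/A hepatocytes. These genes encode antiviral effectors that type I interferon induces. In monocytes 34 of 37 measured members were lower and 0 higher, with a median of -2.33, against 24.8% of all measured genes lower. In Kupffer cells 13 of 30 were lower (12.0% of all), in neutrophils 18 of 32 (29.4%) and in pDC 18 of 29 (17.0%), with medians of -0.69, -1.52 and -1.33. In hepatocytes 8 of 14 were higher and 2 lower (median 2.04), and in endothelial cells 8 of 32 were higher and 3 lower (0.34). T cells (2 of 37 higher, 6 lower) and B cells (2 of 33 higher, 6 lower) had medians of 0.01 and -0.50, and in NK cells 3 of 16 were higher and 0 lower. The summed level of the list in monocytes was 7471 CPM at baseline and 2328 after TNF. It was 9873 and 2899 CPM in the S/S pair, where 33 of 37 members were lower. In other S/S types the members lower were 16 of 26 in Kupffer cells, 21 of 32 in neutrophils, 26 of 32 in pDC, 14 of 35 in B cells, 17 of 37 in T cells (median -0.81) and 17 of 24 in NK cells (-1.39). In S/S hepatocytes 1 of 11 was higher and 2 lower, with a median of -0.13, and the difference from A/A was not tested. The monocyte gate joins a classical gate (39 barcodes at baseline and 341 after TNF) and a nonclassical one (30 and 50), and some barcodes passed both, so its makeup differed between the libraries. Within barcodes of the classical gate alone, a comparison chosen after seeing the data, 34 of 37 members were again lower, with a median of -2.46.

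Ifi27l2a, a mitochondrial interferon-induced protein, was lower in 6 of the 8 types where it was measured. It went from 1975 to 22.9 CPM in Kupffer cells (-6.37, interval -7.00 to -5.91), 2225 to 442 in monocytes, 1398 to 60.7 in neutrophils and 986 to 113 in pDC. In T cells it went from 530 to 423 CPM and in B cells from 386 to 257, both within 2-fold. Ifi44l in monocytes went from 114 CPM to 0 UMIs, at least 283-fold lower, and Ifi44 from 228 to 1.07 CPM. Oasl2, an antiviral sensor-like protein, went from 574 to 7.81 CPM in neutrophils. Irf7, the factor that amplifies type I interferon, went from 408 to 31.3 CPM in Kupffer cells and from 12.4 to 36.9 CPM in NK cells. In hepatocytes Isg15 went from 26.9 to 169 CPM, and in monocytes from 193 to 59.3 CPM; Isg15 was named after its values were seen.

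The GTPases and related genes that interferon γ induces, a list of 21, differed from the type I list in neutrophils and Kupffer cells. In endothelial cells 17 of 20 were higher, in hepatocytes 10 of 12 and in neutrophils 11 of 19, with medians of 1.95, 2.75 and 1.10. In Kupffer cells 7 of 18 were higher and 1 lower, with a median of 0.36. In monocytes 0 of 19 were higher and 15 lower, with a median of -1.92. Gbp2, a guanylate-binding protein, went from 3.50 to 93.0 CPM in hepatocytes, 36.7 to 189 in endothelial cells, 86.0 to 452 in neutrophils and 58.4 to 360 in Kupffer cells, and from 191 to 54.9 CPM in monocytes. Gbp5 went from 19.5 to 411 CPM in neutrophils and from 128 to 40.0 CPM in monocytes. Ifi47, an immunity-related GTPase, went from 5.84 to 1199 CPM in hepatocytes. Irf1, a transcription factor of interferon responses, was higher in 5 types and went from 116 to 43.7 CPM in monocytes.

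Antigen presentation genes were counted in the same way. The MHC class I list was higher for 10 of 18 members in each of Kupffer cells, neutrophils and endothelial cells, and for 0 of 18 in monocytes, where 5 were lower. In S/S, 3 of 17 were higher and 2 lower in Kupffer cells, 9 of 18 higher in neutrophils, and 2 of 18 higher and 4 lower in monocytes. In MHC class II, 9 of 11 members were lower in monocytes (median -1.60), 5 of 7 in endothelial cells (-1.07), and 4 of 11 were higher in pDC (0.82). In S/S, 4 of 11 were lower in monocytes (-0.60) and 2 of 11 higher in pDC (0.39). The makeup of the A/A monocyte gate differed between the libraries, and its part in these values was not tested. In A/A NK cells 5 of 6 were higher and 0 lower (1.59), while in S/S NK cells 1 of 7 was higher and 0 lower (-0.08). The summed class II level in A/A NK cells went from 216 to 796 CPM. After TNF it was 20491 CPM in pDC and 18036 CPM in B cells. Neither is a source type of the marker-share level, so the part of free RNA in the NK values was not tested. Ciita, the class II transactivator, went from 347 to 44.6 CPM in monocytes, and H2-Eb1, a class II β chain, from 3220 to 1010 CPM. In B cells 0 of 11 members passed 2-fold in either direction.

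Early response genes were mixed. Junb, an AP-1 subunit, was higher in 6 types and went from 28.0 to 386 CPM in endothelial cells. Zfp36 (tristetraprolin), which destabilises cytokine mRNAs, was higher in 4 types and went from 1111 to 3474 CPM in neutrophils. Fos was higher in pDC, T cells and endothelial cells and went from 897 to 450 CPM in neutrophils, a log2 ratio of -0.99. Cd69, a lymphocyte activation marker, went from 95.2 to 208 CPM in T cells, 38.9 to 180 in NK cells and 6.49 to 145 in neutrophils, and from 153 to 125 CPM in B cells. Cd83 went from 54.5 to 10.9 CPM in monocytes. Among 16 housekeeping genes, higher members numbered 1 in Kupffer cells and T cells and 7 in B cells, with medians from -0.08 to 0.84.

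Genes higher in 1 type only were more frequent. The rule asked for a log2 ratio of at least 1 in exactly 1 type and under 0.5 in every other type where the gene was measured, with at least 3 types measured. It held for 934 of 11095 genes (8.42%). They numbered 251 in endothelial cells, 193 in Kupffer cells, 149 in hepatocytes, 112 in neutrophils, 89 in monocytes, 55 in B cells, 40 in NK cells, 28 in pDC and 17 in T cells. Those measured in all 9 types numbered 20 in endothelial cells, 51 in Kupffer cells, 94 in hepatocytes and 15 in neutrophils. Monocytes had 9 of these, B cells 5, NK cells 7, and pDC and T cells 0. The rest were not measured in at least 1 other type, where a rise could not be seen. With genes of under 10 kb of intron alone the count was 284.

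In endothelial cells the examples were Nuak2, an AMPK-related kinase (12.2 to 129 CPM), Taf4b, a transcription factor subunit (3.50 to 29.2 CPM), and the noncoding or unnamed genes 9930017N22Rik, B230216N24Rik and Gm36933. At baseline Nuak2 had 7 UMIs, Taf4b and Gm36933 2 each, and 9930017N22Rik and B230216N24Rik 0. No S/S ratio was formed for endothelial cells. In Kupffer cells they were Ddhd1, a phospholipase (37.7 to 467 CPM, 3.59), Pik3cb, a PI3-kinase subunit (12.2 to 90.1), Fam102b (30.4 to 153), Gnaq, a G protein subunit (30.4 to 115) and Plxdc2 (3.65 to 79.4). All 5 were also over 2-fold higher in S/S Kupffer cells, with Ddhd1 at 3.21. They have 50909 to 392589 bases of intron, and 49 of the 193 genes higher in Kupffer cells only have over 100 kb. Over all genes measured in Kupffer cells, 684 of 7043 have over 100 kb. Long-intron genes ran lower in most other types and not in Kupffer cells (medians above), and the part of this in the Kupffer-only calls was not tested. In monocytes Hsd17b7 (2.42 to 39.1 CPM) and Fdft1 (18.2 to 57.4) encode enzymes of cholesterol synthesis, and St7, Ccdc134 and Tmem214 completed the 5. Their baseline UMIs were few, 2 for Hsd17b7, 15 for Fdft1, 3 for St7, 5 for Ccdc134 and 12 for Tmem214. Their S/S ratios were 3.45 for Hsd17b7, 1.03 for Fdft1, 1.11 for St7, 0.77 for Ccdc134 and 0.87 for Tmem214.

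In neutrophils the rule named Tbc1d4, a Rab GTPase regulator (3.24 to 69.2 CPM), and Smpdl3b, a lipid-modifying phosphodiesterase (6.49 to 80.1). It also named Gyg, the primer of glycogen (14.6 to 91.3), Prrg2 and Gm37159. At baseline Tbc1d4, Prrg2 and Gm37159 had 2 UMIs each, Smpdl3b 4 and Gyg 9. The S/S ratios of Tbc1d4 and Smpdl3b were 5.70 and 3.46, those of Gyg and Gm37159 were 0.66 and 0.59, and that of Prrg2 was -0.31. In hepatocytes it named Rtp4, an interferon-induced chaperone (11.7 to 101 CPM), Trp53inp1, a p53-induced stress protein (25.7 to 179), Retreg1, a receptor for autophagy of the endoplasmic reticulum (19.9 to 132), Slc25a47, a mitochondrial carrier (68.9 to 319), and Nedd4l, a ubiquitin ligase (21 to 82.0). Their S/S ratios were 0.62 for Rtp4, 3.23 for Trp53inp1, 1.49 for Retreg1, 1.48 for Slc25a47 and 1.85 for Nedd4l. Retreg1 and Nedd4l have 126366 and 312465 bases of intron. Over 100 kb was found for 36 of the 149 hepatocyte-only genes and for 485 of the 5609 genes measured in hepatocytes. The part of intron length was not tested. In pDC the genes were Cadm1, an adhesion molecule (96.0 to 298 CPM), Rogdi, Srd5a3, Etv5 and Il11ra1, with S/S ratios of 1.22, 1.46, 0.56, 1.28 and 0.45. NK cells gave Xcl1, a chemoattractant for cross-presenting dendritic cells, which went from 253 to 1184 CPM in NK cells (2.22, interval 1.98 to 2.49) and had a log2 ratio of 0.42 in T cells; in S/S the NK ratio was 0.75. B cells gave Ighg2b, an IgG heavy chain (18.7 to 73.8 CPM, S/S ratio 1.64), and T cells gave Prelid2 (20.8 to 45.7 CPM, S/S ratio 0.26).

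Genes over 2-fold lower in every type numbered 15 of 3915 (0.383%). Ranked by the ratio nearest 0 of each gene, those farthest below included Il31ra, Cmss1, Gphn, Cdk8, 5730419F03Rik, Camk1d, Ftl2-ps, Gm48099 and Ftl1-ps1. Il31ra, Cmss1, Gphn, Cdk8 and Camk1d together made up 1.30 to 4.98% of all UMIs of a type at baseline and 0.0038 to 0.0095% after TNF. Of the 15 genes, 8 have over 100 kb of intron. Over all measured genes this held, for example, for 684 of 7043 in Kupffer cells and 1186 of 12678 in T cells. In S/S, 6 of the 7 measured in all 8 types were lower in each, and 6 others, measured in 5 to 7 S/S types, were lower in each of those. The S/S libraries carry the same pair of Cell Ranger versions.

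In the S/S pair 13 of 2879 genes measured in its 8 types (0.452%) were over 2-fold higher in each. Of the 26 A/A genes, 22 were measured in all 8 S/S types and 10 were over 2-fold higher in all 8. Of 931 pairs of a named gene and a type measured in both genotypes, 18 passed 2-fold in opposite directions, and that difference was not tested.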

How the data were processed

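The values are raw UMI counts per gene and barcode, deposited as sparse matrices of 55414 genes; per the labels and the file headers the authors made them with Cell Ranger (7.1.0 for baseline, 6.1.2 for TNF) against mm39 from 10x 3' libraries, and nothing else about the alignment is given in the sources used here. Whether reads in introns were counted is not given either. A barcode needed 300 genes or more and no more than 20% of UMIs from mitochondrial genes. Types came from gates on 146 marker genes (145 found); barcodes passing gates of 2 types were left out as mixed, and no doublet caller was run. UMIs were summed per type and library, scaled to CPM, and compared as log2 ratios with a pseudocount of 1 CPM over genes that had 20 UMIs or more in the 2 libraries together. A gene with 0 UMIs in 1 library is given as a bound against a floor of 3 UMIs in that library. Intervals are exact binomial. The marker-share levels, the 3-fold reading of them and the classical monocyte comparison were added after seeing the data.

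The cell types, 18 gene lists (434 of 435 genes found), members and rules were chosen with earlier results of these data known. Genes named in the text were the 25 genes higher in every type with the largest smallest ratio; 10 lower in every type; in each type up to 5 genes higher in that type only, with at least 100 UMIs, 20 CPM after TNF and a level no lower than in any other type. To these came up to 4 members of each list by absolute ratio with at least 50 UMIs, and 35 fixed genes. Genes with over 50% of their UMIs of a type and library in 1 barcode, ribosomal, mitochondrial and sex-linked genes were not to be named; Igha, Rpl10-ps3, Rhoc and Isg15 are exceptions and were named after their values were seen. Intron lengths came from GENCODE M21 by gene identifier and promoters from RefSeq (GRCm38.p6), since no mm39 genome was used here. Alternatives tried were centring on the median gene, totals without technical genes, a pseudocount of 5 CPM, minimums of 50 or 1 UMIs, an extra marker per gate, stricter cell filters, means over barcodes and genes with under 10 kb of intron. Some items that the naming rule chose are not reported here. The code was tested on simulated counts. The code ran in Python 3.11.15 with pandas 2.3.3, numpy 2.4.6, scipy 1.17.1 and, for figures, matplotlib 3.10.9.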

Additional observations from a re-analysis of the deposited data

Results flagged for a closer look

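In 18 pairs of a named gene and a type, the A/A ratio and the S/S ratio passed 2-fold in opposite directions. Each genotype had 1 library per condition, and none of these differences was tested. Ftl1-ps1, a copy of the ferritin light chain gene, gave 6 of them. Its A/A log2 ratios were -4.94 in Kupffer cells, -4.71 in monocytes, -5.06 in pDC, -3.98 in B cells, -4.94 in T cells and -5.63 in hepatocytes, where the S/S ratios were 1.12, 1.67, 2.96, 1.62, 1.35 and 1.60. Hspa1b, an inducible heat-shock protein, was -1.13 in Kupffer cells, -1.45 in pDC and -1.85 in T cells in A/A, and 4.15, 6.97 and 4.62 in S/S.

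In monocytes Cd83, a maturation marker, was -2.23 in A/A and 1.16 in S/S, and the chemokine Cxcl11 was -1.36 and 2.24. In neutrophils Ngp, a granule protein of immature neutrophils, was 7.35 in A/A, from 2 UMIs at baseline, and -1.95 in S/S, from 4182 UMIs at baseline. Cxcl9 in neutrophils was 5.24 in A/A, from 0 UMIs, and -2.88 in S/S, and H2-Eb1, an MHC class II chain, was -1.01 and 1.5. Igha was 1.64 in Kupffer cells and 1.19 in hepatocytes in A/A, and -1.17 and -1.57 in S/S. Irf7 in NK cells was 1.5 and -1.62. Saa1 in hepatocytes, an acute phase gene, was 1.65 in A/A and -1.14 in S/S.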

How the results depend on the processing

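No paired analysis was possible because each group had 1 library. No list median or fixed gene value of at least 1 in absolute log2 ratio changed sign. These values were not recomputed with minimums of 50 or 1 UMIs or with genes under 10 kb of intron. Counts and shares have no sign to change. Among list members with under 10 kb of intron, the survival and death median in monocytes was 1.21 (-0.06 over all members). The type I interferon median there was -2.22 (-2.33 over all members). Of 194 counts of genes 139 stayed within 1.5 times, and of 971 list medians 925 moved by less than 0.5 log2. Of 1682 values of fixed genes 1598 moved by less than counting error, and of 36 shares of barcodes 19 did. The counts below are higher genes unless said, and the cause of each move was not tested except where fewer genes could be counted. With ratios centred on the median gene, hepatocytes had 680 higher and 623 lower. With totals without ribosomal, mitochondrial and globin genes, higher genes numbered 1819 in B cells and 1230 in T cells, and lower genes 542 in hepatocytes. With a pseudocount of 5 CPM, higher genes numbered 992 in monocytes, 905 in neutrophils, 333 in pDC, 626 in B cells and 224 in T cells, lower genes 226 in hepatocytes, and the NF-kB subunit median in hepatocytes was 2.34. With 50 UMIs needed, the higher and lower counts were 954 and 397 in Kupffer cells, 501 and 954 in NK cells and 588 and 122 in hepatocytes, higher counts 393 in pDC and 646 in B cells, and the lower count 1274 in endothelial cells; 13 genes were higher and 8 lower in every type. With 1 UMI needed, the higher and lower counts were 3045 and 3203 in Kupffer cells, 1118 and 2843 in pDC, 2725 and 3811 in NK cells and 2478 and 2971 in hepatocytes. The lower counts were then 4824 in monocytes, 4953 in neutrophils and 4068 in endothelial cells, the higher count 1857 in B cells, 66 genes were higher and 82 lower in every type, and 1528 higher in 1 type only. With means over single barcodes, the interferon median in hepatocytes was 1.17. Among genes with under 10 kb of intron, the higher and lower counts were 522 and 332 in Kupffer cells, 838 and 417 in monocytes, 866 and 457 in neutrophils, 419 and 153 in pDC, 682 and 153 in B cells, 1208 and 372 in endothelial cells and 474 and 109 in hepatocytes, and the lower counts 132 in T cells and 48 in NK cells; 2 genes were lower in every type and 284 higher in 1 type only. Of the 26 genes higher in every type, 22 were shared with the centred ratios, 20 with the pseudocount of 5 CPM and 21 with a cell filter of 500 genes and 10% mitochondrial UMIs. Only 1 library per group, the Cell Ranger version and the 56 monocytes and 57 NK cells at baseline limit all comparisons.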

Other observations

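Granule and receptor genes of the neutrophil activation list, 27 genes, were higher in 15 of 27 cases and lower in 2 in neutrophils, with a median of 1.86. In S/S neutrophils 11 of 27 were higher and 5 lower, with a median of 0.54. Ngp, Mmp8, Wfdc21 and Lcn2 were among the 10 leading genes of A/A neutrophils after TNF and not at baseline. The part of a different makeup of the neutrophil gate was not tested. Cd14 went from 200 to 4335 CPM in A/A neutrophils. Clec4e, the receptor Mincle, went from 3.65 to 706 CPM in Kupffer cells, where 19.7% of its UMIs lay in 1 barcode.

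Of the endothelial activation and identity list, 13 of 28 measured genes were higher and 5 lower in endothelial cells, with a median of 0.85. Akap12 went from 101 to 3475 CPM in endothelial cells. Of the hepatocyte metabolism list, 5 of 20 measured genes were higher and 2 lower in hepatocytes, with a median of 0.47 against 0.36 over all genes; Cyp1a2, a xenobiotic-metabolising cytochrome, went from 12.8 to 80.0 CPM. Of the lymphocyte activation and trafficking list, 3 of 25 were higher and 3 lower in T cells (0.24), 5 of 21 and 3 in NK cells (-0.01) and 2 of 15 and 4 in B cells (-0.26).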
